A study of Homo sapiens with 6 samples.

Results

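The super elongation complex (SEC) carries the kinase CDK9 to RNA polymerase II. Its subunits were examined in cells of H9, an established T-cell lymphoma line, with and without inhibition of that kinase. The 10 genes were taken by name, namely the scaffolds AFF1, AFF3 and AFF4, the elongation factors ELL, ELL2 and ELL3, the ELL-associated factors EAF1 and EAF2, and the YEATS domain proteins MLLT1 (ENL) and MLLT3 (AF9). They are 10 of the 61541 genes in the count table, each with 1 entry. Of these, 8 had counts and passed the filter on low counts, and 7 of those 8 were lower upon AZD4573 treatment, where 37.4% of all genes tested were lower. Within the pairs AFF1 and AFF4, ELL and ELL2, and EAF1 and EAF2, both genes fell, by unequal amounts.

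In this complex an AFF protein serves as the scaffold, on which P-TEFb (CDK9 with cyclin T1 or cyclin T2), an ELL protein with its EAF partner, and MLLT1 or MLLT3 assemble. ELL proteins raise the rate at which the polymerase elongates, P-TEFb phosphorylates the polymerase and the pausing factors, and the YEATS domain of MLLT1 and MLLT3 binds acylated histone tails. The paralogues can replace each other within the complex, so that cells hold several forms of it. AFF1, AFF4, ELL, MLLT1 and MLLT3 were first known as fusion partners of KMT2A (MLL) in acute leukaemia.

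Both groups were H9 cells with the genotype given as WT, and each held 3 RNA-seq libraries. The labels name poly(A) RNA and the study's methods rRNA depletion, so that the RNA fraction is uncertain. One group received the vehicle DMSO, for which the labels give no time. The other received AZD4573, a selective CDK9 inhibitor, for 4 h, at a nanomolar concentration stated by the study. H9 is the only line here, and nothing states that the libraries of a group came from separate cultures, so that p-values measure only the spread between these libraries.

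Total counts ranged from 70367303 to 76571157 with DMSO and from 52101868 to 63795185 with AZD4573. A count of 0 therefore allows a level of 0.0392 to 0.0576 CPM (counts scaled to a common library total) in a library, taken as 3 counts of the total and covering counting error only. Of 10 T-cell markers, 9 were above 1 CPM in every library, and CD2 was not. Their summed level was 1037 to 1063 normalised CPM with DMSO and 1393 to 1491 with AZD4573. The markers did not all follow the sum. Mean GATA3 was 216 with DMSO and 358 with AZD4573, whereas mean CD28 was 5.85 with DMSO and 4.35 with AZD4573. The 3 erythroid markers summed to at most 0.0526 normalised CPM. The 5 myeloid markers summed to 0.268 to 0.492 with DMSO and 1.15 to 2.08 with AZD4573. With AZD4573 this came mainly from MPO, which had 82, 59 and 41 counts there and 0 in each DMSO library. The 4 B-cell markers summed to 60.9 to 66.8 with DMSO and 92.2 to 103 with AZD4573, mainly from CD79A. Mean CD79B was lower with AZD4573 (3.46) than with DMSO (5.66), and MS4A1 and PAX5 stayed under 1 in group means. Among 5 epithelial and fibroblast markers the sum of 155 to 172 with DMSO and 136 to 140 with AZD4573 came mainly from EPCAM. What these marker levels add to the results was not tested. The mRNAs of the mitochondrial genome took 3.04% to 3.22% of the counts with DMSO and 4.67% to 4.98% with AZD4573, so that values relative to the other transcripts of a library and amounts per cell may differ. Over all genes tested, the median log2 fold change was 0.03 with TMM and -0.71 with libraries scaled to these mRNAs. In bulk RNA, fewer cells of a type and less RNA per cell cannot be told apart.

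Levels below are normalised CPM, with library totals adjusted by edgeR's TMM factors, and errors are SD over 3 libraries. Changes are log2 fold changes, AZD4573 against DMSO, tested with edgeR's quasi-likelihood test and adjusted by the Benjamini-Hochberg method over the 17678 genes that passed the filter. A gene is called lower or higher at an adjusted p under 0.05. By this rule 37.4% of all genes tested were lower and 37.3% higher. The libraries of the groups did not overlap for 38.7% of genes in the lower and 39% in the higher direction. Of the 8 members tested, 7 were lower and 0 higher, and the same 7 were those whose AZD4573 libraries all lay below all DMSO libraries. ELL3 is the only one of the 8 without a call. Their median log2 fold change was -0.30, against 0.03 over all genes tested. With a fold change of at least 1.5 as a further condition, 3 of the 8 members were lower, namely AFF1, ELL2 and EAF2, where the share of all genes was 23.7%, and 0 were higher, against 22.7%.

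AFF1, a scaffold of the complex, was among the members with the largest falls. With DMSO its 3 libraries were at 38.6, 39.8 and 41.7 normalised CPM, and with AZD4573 at 20.2, 17.7 and 17.5. The groups lay far apart, with little spread within either. The mean went from 40.0 ± 1.60 to 18.5 ± 1.49 normalised CPM (SD, n = 3), which is -1.12 ± 0.0660 (SE) on the log2 scale with an edgeR quasi-likelihood adjusted p of 4.1e-09. Only 11.8% of all genes tested had a more negative change.

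AFF4, the scaffold best known from the complex that HIV-1 Tat recruits, changed much less. Its DMSO libraries stood at 49.6, 53.0 and 52.6 normalised CPM and its AZD4573 libraries at 45.6, 44.2 and 44.1. The groups did not overlap, but the lowest DMSO and the highest AZD4573 library were close. The log2 fold change was -0.21 ± 0.0495 (SE), at an edgeR quasi-likelihood adjusted p of 0.00151, and 39.6% of all genes had a more negative one. AFF3, a paralogue known mainly from lymphoid and neural tissue, had 0 counts in each of the 6 libraries.

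ELL, the founding member of its family, was measured at 31.4, 31.6 and 32.6 normalised CPM with DMSO and at 24.6, 28.6 and 25.9 with AZD4573. All treated libraries were below all untreated ones, and they differed more among themselves than the DMSO libraries did. The log2 fold change was -0.27 ± 0.0626 (SE), at an edgeR quasi-likelihood adjusted p of 0.00145. Of all genes tested, 37.1% had a more negative change.

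ELL2, the paralogue that is the usual ELL protein of plasma cells and of Tat-containing complexes, fell by 0.96 on the log2 scale (SE 0.0717), at an edgeR quasi-likelihood adjusted p of 4.1e-08. Its libraries were at 28.0, 29.0 and 26.0 normalised CPM with DMSO and at 15.5, 13.7 and 13.5 with AZD4573. The treated levels were 51.5% of the untreated ones by the fitted fold change, with a wide gap between the groups.

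ELL3, the paralogue best known from germ cells and embryonic stem cells, was barely counted. Untreated libraries held 14, 17 and 11 counts of it, and treated libraries 14, 7 and 4. The groups overlapped, since the highest and the lowest normalised level both came from AZD4573 libraries. Its log2 fold change was -0.30 ± 0.531 (SE), with an edgeR quasi-likelihood adjusted p of 0.615, so that a change was not detectable at this depth. ELL3 also shares 1773 of its 2500 exon bases with other genes, among them PDIA3 and SERF2 on the opposite strand. Counting without regard to strand cannot use the strand to place reads from the bases shared with these 2 genes, which leaves the few counts of ELL3 uncertain.

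EAF1, which binds ELL proteins and stimulates their activity, was at 61.8, 63.0 and 61.9 normalised CPM with DMSO and at 45.8, 56.5 and 49.7 with AZD4573. The DMSO libraries were nearly equal, whereas the AZD4573 libraries spread over a range of about the size of the change. The groups still did not overlap, and the log2 fold change was -0.30 ± 0.0661 (SE), at an edgeR quasi-likelihood adjusted p of 0.00115. A more negative change was seen in 36.2% of all genes tested. EAF1 shares 1962 of 4909 exon bases with METTL6, EAF1-AS1 and COLQ on the opposite strand. Of these, METTL6 was lower, with a log2 fold change of -0.51, COLQ was higher, with means of 0.267 and 0.755 normalised CPM, and EAF1-AS1 was not called.

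EAF2, the paralogue of EAF1, had the most negative log2 fold change of the members tested. It was measured at 3.20, 3.09 and 3.04 normalised CPM with DMSO and at 1.12, 0.842 and 1.16 with AZD4573. These levels rest on 224 to 251 counts in a DMSO library and 48 to 71 in an AZD4573 library. The mean went from 3.11 ± 0.0816 to 1.04 ± 0.174 normalised CPM (SD, n = 3), which is -1.58 ± 0.165 (SE) on the log2 scale with an edgeR quasi-likelihood adjusted p of 1.2e-06. This is 33.5% of the untreated level, and 5.77% of all genes tested had a more negative change.

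MLLT1, a reader of acylated histones in the complex, was at 148, 154 and 153 normalised CPM with DMSO and at 128, 128 and 126 with AZD4573. Both groups were tight and did not overlap. Its log2 fold change was -0.26 ± 0.0396 (SE), at an edgeR quasi-likelihood adjusted p of 5.2e-05, and 37.7% of all genes tested had a more negative one. MLLT3, its paralogue, had 0 counts in each of the 6 libraries, so that of this pair MLLT1 alone was detected in H9 cells.

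**Figure D1:**
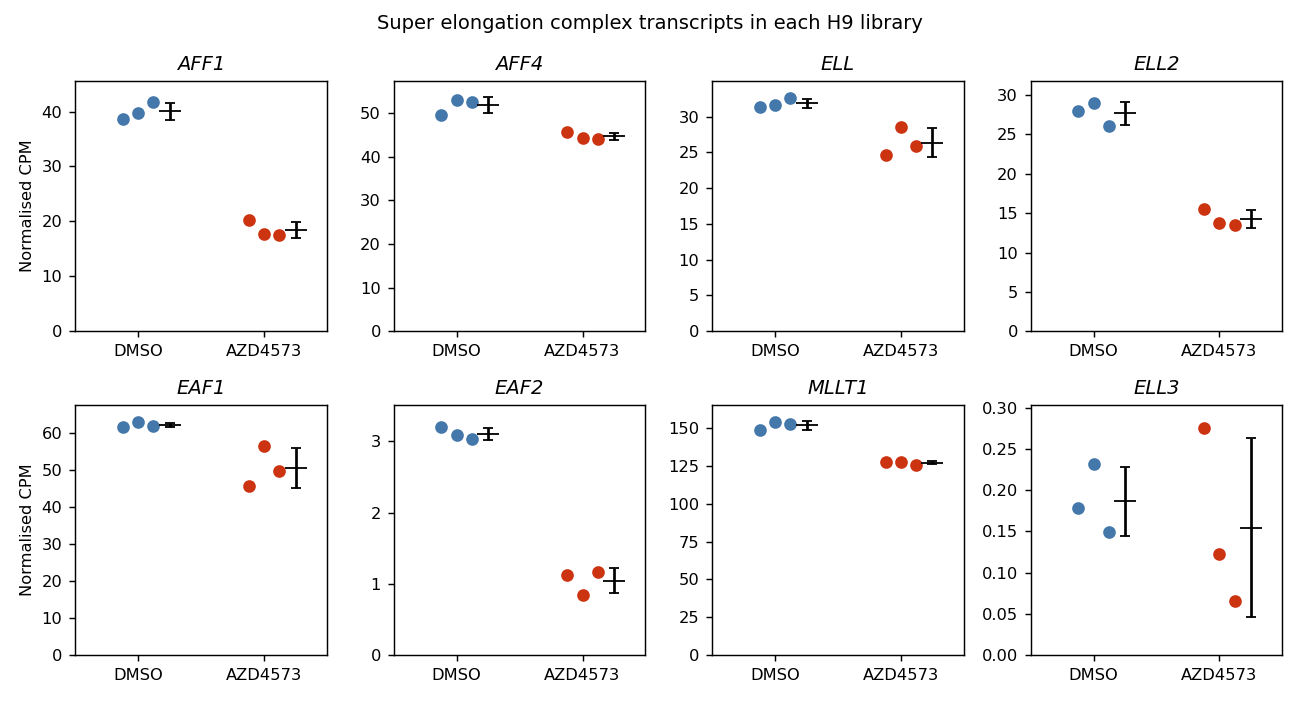
Normalised CPM (linear axis from 0, scaled for each gene) of the 8 counted members in the 3 DMSO (blue) and 3 AZD4573 (red) libraries, with black marks for the mean and SD. The groups lie far apart for AFF1, ELL2 and EAF2, lie closer for AFF4, ELL, EAF1 and MLLT1, and overlap for ELL3, which had 4 to 17 counts in a library.

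Levels were compared between genes only per kilobase of merged exons. With DMSO, MLLT1 was the most abundant member at 31.8 ± 0.610 normalised CPM per kilobase (SD, n = 3). EAF1 followed with 12.7 ± 0.135, ELL with 6.48 ± 0.133, AFF4 with 4.59 ± 0.163, ELL2 with 3.89 ± 0.213, AFF1 with 3.65 ± 0.146 and EAF2 with 1.76 ± 0.0461. The libraries of ELL2 (3.66 to 4.08) and AFF1 (3.52 to 3.81) overlapped, and no other neighbours in this order did. ELL3 came last among the counted members at 0.0747 ± 0.0168.

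With AZD4573 the order was the same, and the gap between AFF4 and both ELL2 and AFF1 was wider. AFF4 stood at 3.96 ± 0.0730 normalised CPM per kilobase (SD, n = 3), ELL2 at 2.01 ± 0.158 and AFF1 at 1.69 ± 0.136. ELL2 (1.90 to 2.19) and AFF1 (1.60 to 1.84) no longer overlapped. The length of the canonical transcript in place of merged exons gave the same order in both groups.

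Paralogues were then compared with each other within each library, since the ratio of 2 genes of 1 library does not depend on how libraries are scaled. Of 8 planned pairs, 5 had counts for both genes. The change of each log2 ratio was tested over libraries by a two-sided exact permutation test, in which 3 against 3 libraries cannot give a p below 0.10, so that no pair could pass 0.05 by this test. As a second test, chosen after the data were seen, the log2 fold changes of both genes in the edgeR fit were subtracted and their standard errors combined, with p-values adjusted over the 5 pairs.

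For each count of AFF4 there were 0.777, 0.750 and 0.793 counts of AFF1 with DMSO, against 0.443, 0.400 and 0.397 with AZD4573. The ratio was lower in every treated library. The log2 ratio went from -0.37 ± 0.0411 to -1.28 ± 0.0874 (SD, n = 3), a change of -0.90 with a standard error of 0.0558 (exact permutation p = 0.10, the smallest this design allows, adjusted 0.17). By the second test the edgeR log2 fold changes differed by -0.90, with a 95% interval from -1.08 to -0.73 (adjusted p = 3.4e-07). The share of AFF1 in the summed level of AFF1 and AFF4 per kilobase, without the paralogue AFF2, was 44.3% ± 0.703 with DMSO and 29.8% ± 1.28 with AZD4573 (SD, n = 3).

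For each count of ELL2, the DMSO libraries held 1.12, 1.09 and 1.25 counts of ELL and the AZD4573 libraries 1.59, 2.08 and 1.92. ELL thus gained on ELL2 in every treated library, although both genes were lower. The log2 ratio changed by 0.68 with a standard error of 0.132 (exact permutation p = 0.10, the smallest this design allows, adjusted 0.17), and the edgeR log2 fold changes differed by 0.69, with a 95% interval from 0.48 to 0.89 (adjusted p = 1.2e-05). Within the ELL family, the share of ELL2 per kilobase went from 37.3% ± 1.66 to 27.0% ± 2.63 (SD, n = 3), and ELL3 stayed below 1% in group means.

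EAF1 and EAF2 had the largest change of ratio of the 3 pairs, a ranking that was not tested. There were 19.3, 20.4 and 20.4 counts of EAF1 for each count of EAF2 with DMSO, and 40.9, 67.1 and 42.8 with AZD4573. AZD4573 replicate 2 had the highest ratio, and without it the change of the log2 ratio was 1.05 in place of 1.28 (standard error 0.229, exact permutation p = 0.10, the smallest this design allows, adjusted 0.17). In the edgeR fit the difference was 1.28, with a 95% interval from 0.90 to 1.66 (adjusted p = 1.2e-05). EAF2 made up 12.2% ± 0.338 of the EAF level per merged kilobase with DMSO and 5.47% ± 1.31 with AZD4573 (SD, n = 3), or 18.2% and 8.50% by the length of the canonical transcript.

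Against ELL3 neither ELL nor ELL2 could be placed. The log2 ratio of ELL to ELL3 changed by 0.17 (exact permutation p = 0.80, adjusted 0.80) and that of ELL2 to ELL3 by -0.52 (exact permutation p = 0.50, adjusted 0.62). The 95% intervals of the difference in the edgeR fit ran from -1.12 to 1.19 and from -1.81 to 0.50, wide enough to hold a change in either direction.

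**Figure D2:**
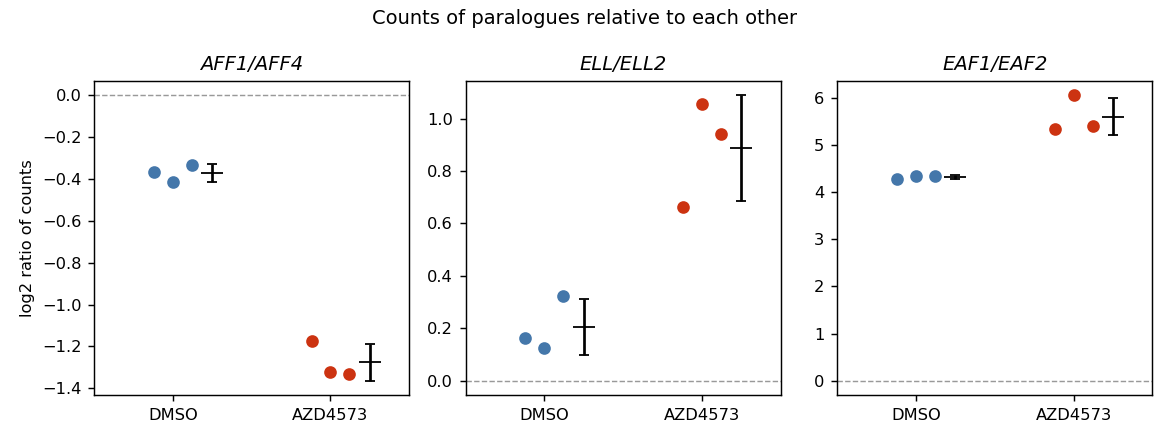
Log2 ratio of counts within each library for 3 paralogue pairs (log2 axis, 3 DMSO libraries in blue, 3 AZD4573 libraries in red, black marks for mean and SD, dashed line for equal counts). The ratio of AFF1 to AFF4 is lower in every AZD4573 library, and the ratios of ELL to ELL2 and of EAF1 to EAF2 are higher in every one.

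**Figure D3:**
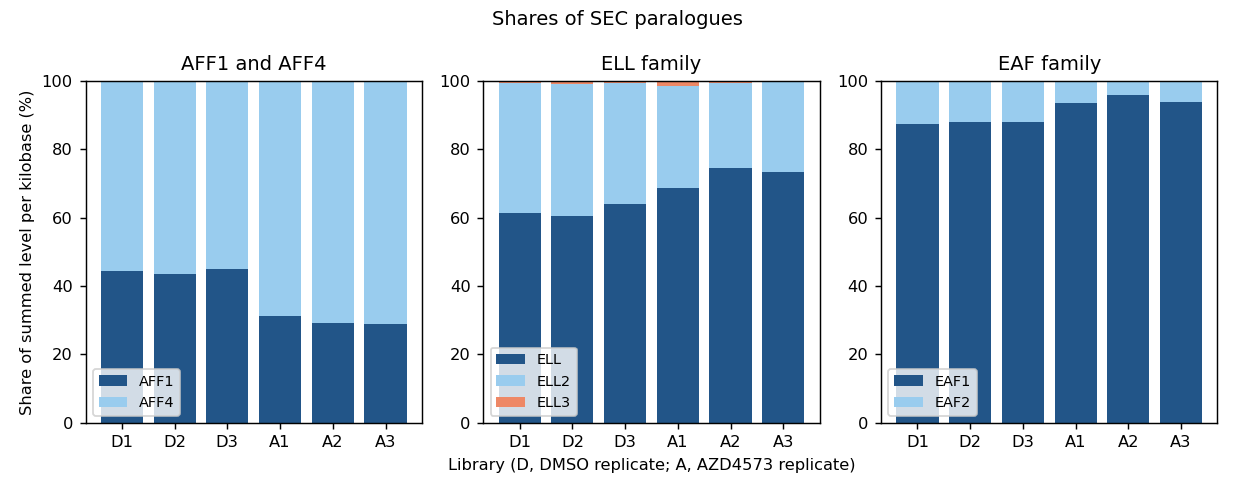
Share of each paralogue in the summed level per kilobase of the SEC members of its family, without AFF2 (%, stacked bars from 0 to 100), for each DMSO (D) and AZD4573 (A) library. AFF1, ELL2 and EAF2 take smaller shares in all AZD4573 libraries than in any DMSO library, and AFF3 has no bar because it had 0 counts.

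To give the genomic setting of the pairs that moved apart, the RefSeq promoter sequences on GRCh38.p14 were searched for short motifs on both strands. RefSeq windows were at hand for 9 members and not for ELL2. Each sequence below holds the 250 bases before the annotated start, written 5′ to 3′ along the gene, and AFF1 is shown at the upstream one of its 2 starts. Capitals mark CCAAT boxes, ETS cores (CCGGAAG), E-boxes (CACGTG) and GC boxes (GGGCGG), none of which overlap in these 4 windows.
AFF1, chr4:86934761-86935010 (+ strand): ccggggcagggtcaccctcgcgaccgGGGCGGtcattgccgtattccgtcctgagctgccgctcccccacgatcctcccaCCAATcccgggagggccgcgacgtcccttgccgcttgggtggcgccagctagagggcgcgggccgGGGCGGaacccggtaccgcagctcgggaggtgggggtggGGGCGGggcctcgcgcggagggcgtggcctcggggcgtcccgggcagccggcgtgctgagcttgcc
AFF4, chr5:132963635-132963884 (- strand): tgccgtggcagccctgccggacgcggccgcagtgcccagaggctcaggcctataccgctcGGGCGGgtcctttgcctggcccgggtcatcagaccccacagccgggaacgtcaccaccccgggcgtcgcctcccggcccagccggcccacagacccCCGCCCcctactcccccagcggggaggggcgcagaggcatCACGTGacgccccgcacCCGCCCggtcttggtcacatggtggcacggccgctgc
EAF1, chr3:15427348-15427597 (+ strand): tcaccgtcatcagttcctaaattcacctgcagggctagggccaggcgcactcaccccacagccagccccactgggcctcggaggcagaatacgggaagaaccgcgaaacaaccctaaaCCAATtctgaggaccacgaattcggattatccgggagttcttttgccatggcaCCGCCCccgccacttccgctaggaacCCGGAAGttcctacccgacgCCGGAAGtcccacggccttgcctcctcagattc
EAF2, chr3:121834959-121835208 (+ strand): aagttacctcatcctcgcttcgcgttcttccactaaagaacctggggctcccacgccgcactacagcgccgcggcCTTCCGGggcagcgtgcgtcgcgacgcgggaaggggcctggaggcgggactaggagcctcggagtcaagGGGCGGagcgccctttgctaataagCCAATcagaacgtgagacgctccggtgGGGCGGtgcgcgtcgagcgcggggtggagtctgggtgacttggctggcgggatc
The AFF1 window held 3 GC boxes and 1 CCAAT box, and that of AFF4 held 3 GC boxes and 1 E-box. EAF1 had 1 GC box, 2 ETS cores and 1 CCAAT box, where EAF2 had 2 GC boxes, 1 ETS core and 1 CCAAT box. Of all 35116 RefSeq windows of this length, 42.6% held a GC box, 32.0% a CCAAT box, 8.5% an ETS core and 6.3% an E-box. A TATA box (TATAAA) or a GATA site (AGATAA) was in none of the windows of the 9 members, and 10.7% and 9.2% of all windows held these letters. The windows of AFF1, AFF4, EAF1 and EAF2 had 32, 26, 17 and 29 CpG dinucleotides, against a median of 11 over all windows. These matches describe letters in the windows and were not tested against the changes in level.

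The members differ in genomic length. AFF1 spans 206.0 kb on chromosome 4 (86935002 to 87141039, 21 exons in the canonical transcript of GENCODE release 44, GRCh38) and AFF4 spans 88.2 kb on chromosome 5 (132875395 to 132963634, also 21 exons). ELL (79.5 kb, chromosome 19) and ELL2 (76.8 kb, chromosome 5) are of nearly the same span and have 12 exons each. EAF1 (23.0 kb) and EAF2 (51.3 kb) both lie on chromosome 3 with 6 exons each, and MLLT1 spans 69.6 kb on chromosome 19. The members with the larger fall were thus the longer ones in the AFF and EAF pairs, and the slightly shorter one in the ELL pair. Over all protein-coding genes tested, the median log2 fold change was 0.06 for spans under 10 kb (2669 genes), -0.07 from 10 to 30 kb (3860), -0.18 from 30 to 100 kb (4460) and -0.01 above 100 kb (2434). In the class from 30 to 100 kb, which holds AFF4, ELL, ELL2, EAF2 and MLLT1, 49.7% of genes were lower.

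Genes linked to the complex did not all share its direction. Of 36 partner genes listed by role, 20 were lower and 12 higher, where 37.4% of all genes tested were lower and 37.3% higher. Among the 36 are SIAH1, not called, and 6 inducible genes known to use the complex, with 3 lower and 2 higher. All 3 P-TEFb genes, which supply the kinase that the complex carries, were higher. CDK9 went from 64.0, 65.3 and 67.1 normalised CPM with DMSO to 120.5, 122 and 123 with AZD4573, which is 0.90 ± 0.0425 (SE) on the log2 scale with an edgeR quasi-likelihood adjusted p of 5.8e-10. CCNT1 had a log2 fold change of 1.19 and CCNT2 one of 0.85, again with no overlap between groups. With mitochondrial scaling all 3 were smaller, at 0.16 for CDK9 (edgeR adjusted p = 0.0223), 0.45 for CCNT1 and 0.11 for CCNT2 (edgeR adjusted p = 0.138). The scaffold paralogue AFF2, known from fragile XE syndrome, moved opposite to AFF1 and AFF4. Its libraries stood at 19.1, 19.2 and 18.7 normalised CPM with DMSO and at 38.6, 39.3 and 35.3 with AZD4573, which is 0.99 ± 0.0591 (SE) on the log2 scale with an edgeR quasi-likelihood adjusted p of 4.4e-09.

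Complexes that share subunits with the SEC were mixed. In the little elongation complex, which uses ELL at small nuclear RNA genes, ICE1 (-0.35), ICE2 (-0.29) and ZC3H8 (-0.40) were lower on the log2 scale by amounts near those of ELL and EAF1. In the complex of the histone methyltransferase DOT1L, which binds MLLT1 and MLLT3, MLLT10 was lower with a log2 fold change of -0.97. MLLT6 was higher there (0.30, but -0.44 with mitochondrial scaling), and DOT1L itself stood at 0.067 (edgeR adjusted p = 0.213). The ubiquitin ligase SIAH1, which marks ELL2 for degradation, had a log2 fold change of -0.14 (edgeR adjusted p = 0.10).

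All 4 genes of the 7SK particle, which holds P-TEFb inactive, were lower, where 37.4% of all genes tested were. Their falls were unequal. HEXIM1, its main inhibitor subunit, had a log2 fold change of -3.49 and MEPCE, the 7SK capping enzyme, one of -3.41. HEXIM2 had one of -1.18. LARP7 stood at -0.31, and 35.5% of all genes tested had a more negative change. Among 9 genes listed as recruiters of the complex, 6 were lower and 2 higher, against 37.4% and 37.3% of all genes tested. The 9 include MEN1 (log2 fold change -0.44) and KMT2A (0.24), which is linked to the complex above through leukaemia fusions. The subunits of the PAF1 complex ranged from -1.58 for LEO1 to -0.46 for RTF1 on the log2 scale, apart from SKIC8 with 0.091 (edgeR adjusted p = 0.127). MED26, the Mediator subunit that docks the complex, was higher with 0.65, and at -0.093 with mitochondrial scaling. The pausing factors were split, with 3 lower and 3 higher. NELFA stood at -1.50, whereas the other lower ones, SUPT5H (-0.22) and NELFCD (-0.18), changed little. Of all genes tested, 39.3% and 41.1% had a more negative change than SUPT5H and NELFCD. The 3 higher ones all turned negative with mitochondrial scaling. Of these 3, NELFB (0.10) was also not called when only library size was scaled, when no filter was used, or without DMSO replicate 2 or 3 or AZD4573 replicate 2 or 3 (edgeR adjusted p from 0.0698 to 0.984).

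The 6 inducible genes known to use the complex were also divided. The heat shock genes HSPA1A and HSPA1B, near-identical copies between which reads may be split, had log2 fold changes of -1.16 and -1.48. FOS (-0.39) was lower too, EGR1 (0.92) and MYC (0.17) were higher, and JUN stood at 0.075 (edgeR adjusted p = 0.306), while with mitochondrial scaling MYC turned to -0.58 and JUN to -0.67 and EGR1 stood at 0.19 (edgeR adjusted p = 0.243). The call of FOS was lost without DMSO replicate 2 or 3 or AZD4573 replicate 2 or 3 (edgeR adjusted p from 0.0530 to 0.109). That of MYC was lost without AZD4573 replicate 2 or 3 (edgeR adjusted p = 0.104 and 0.0501) and with library size only (0.061, edgeR adjusted p = 0.283), and JUN was called without AZD4573 replicate 1 (0.15, edgeR adjusted p = 0.0128).

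**Figure D4:**
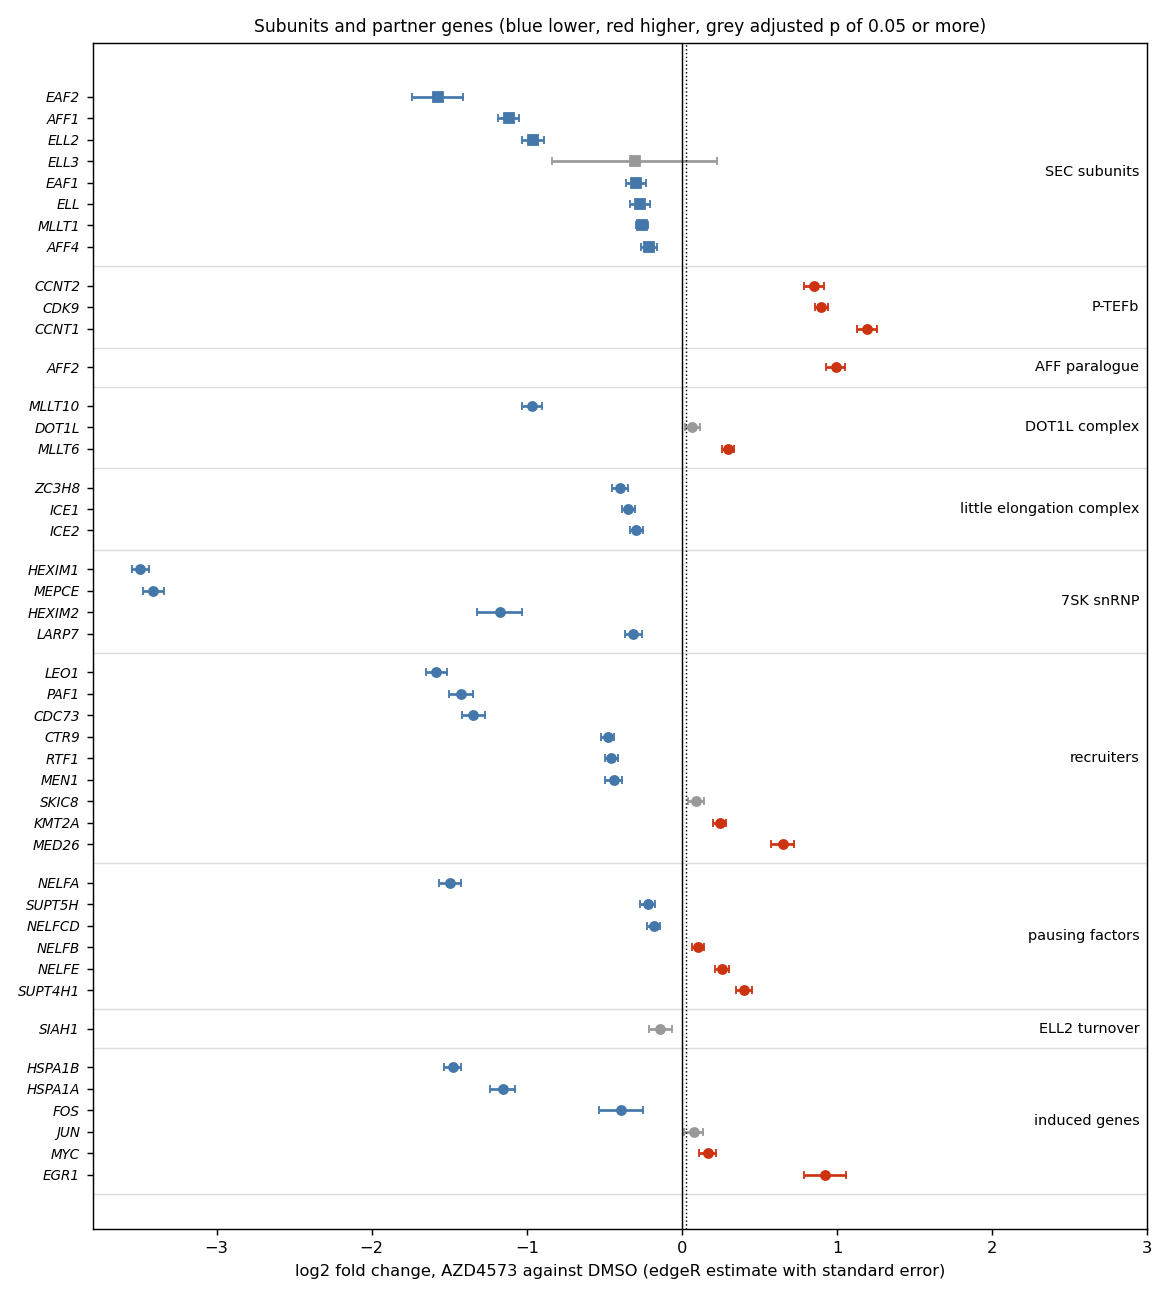
Log2 fold change of AZD4573 against DMSO (edgeR estimate with its standard error) for the 8 tested members (squares) and 36 partner genes (circles), with a dotted line at the median of all genes tested, 0.03. All 8 squares lie to the left of 0, with ELL3 in grey as not called, while the 3 P-TEFb genes and AFF2 lie to the right.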

How the data were processed

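Bulk RNA-seq covered 3 DMSO and 3 AZD4573 libraries of H9 cells, grouped by their labels. The authors trimmed reads with Cutadapt (2.3), aligned them to GRCh38 with STAR (2.7.8a) and deposited RSEM (1.3.3) expected counts per gene, as whole numbers without normalization. RSEM was run by the study at default settings, which ignore strand. The labels name poly(A) selection, whereas the study's methods describe rRNA depletion. The 5 entries that are not genes held 0 counts.

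Counts were analysed in R 4.3.3 with edgeR 4.0.16 (minimum count of 10, TMM, quasi-likelihood test without a replicate block, Benjamini-Hochberg adjustment over 17678 genes). The fit was also run on simulated counts where few genes changed, as many up as down. That run does not test the scaling or the error rate in these data, where most genes were called. The study used DESeq2 with a fold change of at least 1.5. Paralogue ratios used an offset of 0.5 counts. For the second test of pairs, covariance between the genes was taken as 0 and the moderated degrees of freedom of the fit were used. No pair of libraries within a group was a copy (a chi-square test gave 5.62 to 21.5 per degree of freedom). Deviations of same-numbered libraries correlated at -0.0208, 0.0417 and 0.0316. These values gave no sign that replicate numbers pair the libraries, and cannot exclude it.

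Alternatives were other scalings, filters and fold thresholds, each library left out, a replicate block and DESeq2 1.42.0. Gene models came from GENCODE release 44 and promoters from RefSeq (GRCh38.p14). All 10 members were named, as were partner genes where a role was described. Members and lists were chosen with earlier results of these data known. A partner gene and a marker gene of these lists are not reported here.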

Additional observations from a re-analysis of the deposited data

How the results depend on the processing

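The count of lower members stayed at 7, and that of higher members at 0, under each scaling, filter and library left out, with the replicate block and with DESeq2. The share of all genes called lower was 67.2% with mitochondrial scaling and 41.6% with library size only, so that the same count stands against another background there. At a fold change of at least 1.5 the count of lower members was 3, where 23.7% of all genes were lower. At a fold change of at least 2 it was 2 (AFF1 and EAF2). Stricter rules imply smaller counts, and the share of all genes was not taken at the threshold of 2. Scaled to the mitochondrial mRNAs, which moved the median of all genes to -0.71, members ranged from -2.31 (EAF2) to -0.95 (AFF4). ELL3, at the limit of depth, ranged from -0.99 to 0.072 with 1 library left out, and reversed only without AZD4573 replicate 3. Of the partner genes, 30 were lower and 3 higher with mitochondrial scaling, where 11878 of all 17678 genes tested were lower and 2144 higher. With TMM and a fold change of at least 1.5 the partner counts were 10 and 6, where 23.7% of all genes were lower and 22.7% higher. At a fold change of at least 2 they were 9 and 1, without a share of all genes to set beside them. Mitochondrial scaling reversed the log2 fold changes of MED26 (-0.093), SKIC8 (-0.65), KMT2A (-0.49), DOT1L (-0.67), MLLT6 (-0.44), SUPT4H1 (-0.34), NELFB (-0.63), NELFE (-0.48), JUN (-0.67) and MYC (-0.58), following the shift of all genes. Library size as the only scaling reversed SKIC8 (-0.013), DOT1L (-0.038) and JUN (-0.031). CDK9 (0.16), CCNT1 (0.45) and AFF2 (0.25) stayed higher with mitochondrial scaling. Paralogue ratios do not depend on the scaling. The difference of edgeR fold changes, a test chosen after seeing the data, was past its threshold for AFF1/AFF4 (-0.90), ELL/ELL2 (0.69) and EAF1/EAF2 (1.28), where the exact test cannot be. ELL/ELL3 reversed to -0.12 with an offset of 5 counts and ranged from -0.29 to 0.72 with each library left out, where leaving out DMSO replicate 2 or AZD4573 replicate 3 made it negative. ELL2/ELL3 ranged from -0.94 to -0.07. With 1 library left out, the other 3 pairs kept their direction, from -0.96 to -0.88 for AFF1/AFF4, 0.60 to 0.79 for ELL/ELL2 and 1.05 to 1.41 for EAF1/EAF2. No sign of pairing by library number was seen. The replicate block gave 7 lower members, 20 lower and 12 higher partner genes, and changed no call of a member. For the ratios the block left the change as it was (-0.90 for AFF1/AFF4, exact sign-flip p = 0.25, the smallest that 3 pairs allow).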

Other observations

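The genes whose 6 mean-centred log2 CPM values lay closest to those of AFF4 were N4BP2L2 (Euclidean distance 0.0323 over 6 libraries), TRMT2A (0.0332) and NFATC2 (0.0431), with log2 fold changes of -0.22, -0.21 and -0.22. These distances describe the libraries and carry no test. The 4 ELL2 pseudogenes in the count table had 3 counts or fewer in any library, and the transcript EAF1-AS1, which overlaps EAF1, had 3 to 20 counts.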
